A study of Triticum aestivum with 12 samples.

Results

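E82 is a low-gluten bread wheat line, obtained from BW208, in which hairpin RNAs against the ω-, α- and γ-gliadin genes are transcribed under endosperm-specific promoters. BW208 itself served as the wild type (WT) and carries no hairpin. Both lines were grown in a greenhouse, and grain was collected 20 days after anthesis from 3 plants of E82 and 3 plants of the WT, each giving 1 RNA-seq library. E82 is a single selfed line, so a difference between the lines can belong to the hairpin or to anything else in which this line departs from BW208, and these cannot be told apart. The comparison described here is E82 grain against WT grain for the genes outside 3 stretches of chromosomes 1B, 3A and 3D, which earlier results on these libraries had marked as changed along the chromosome in E82. Of the 107892 genes in the table, 2104 lie in the stretches (434 on 1B, 769 on 3A and 901 on 3D) and 105788 lie outside. Of those outside, 63741 reached a CPM sum above 1 over the 6 libraries and were tested, where CPM is the count scaled to 1000000 counts of the library.

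Bread wheat carries 3 related genomes, A, B and D, so most genes occur as homeologs on the A, B and D copies of a chromosome. In the endosperm, storage proteins and starch accumulate together during grain filling. The storage proteins include the gliadins and glutenins, which form gluten, and the globulins. Starch is built from ADP-glucose by synthases that extend the chains and by branching enzymes that join them. Transcription factors of the DOF, NAC, bZIP, MYB and NF-Y families are known to act on storage protein and starch genes in cereal grain.

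Total counts lay between 31716495 and 44826804 in the E82 grain libraries, and between 47733020 and 50629732 in the WT grain libraries. On a log2(CPM + 1) scale, Pearson's r over the tested genes ranged between 0.925 and 0.939 within E82 and between 0.906 and 0.928 within the WT. The WT replicates differed in likeness to the E82 libraries. Their r with E82 was 0.856 to 0.865 for replicate 1, 0.893 to 0.906 for replicate 2 and 0.924 to 0.93 for replicate 3. Within the WT, replicates 1 and 2 had the highest r, 0.928, and replicates 1 and 3 the lowest, 0.906. WT replicate 1 also had the smallest TMM scaling factor, 0.798. The main counts, and the values of some of the listed genes, are also given without it.

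Among the genes that changed in E82 grain outside the stretches, falls far outnumbered rises. By the quasi-likelihood test of edgeR, at a Benjamini-Hochberg adjusted p under 0.05, 330 genes were lower and 14 were higher in E82. These are 0.518% and 0.0220% of the genes tested, or 0.540% in all. All 344 had every E82 library on one side of every WT library, which held for 8.67% of tested genes downwards and for 6.96% upwards. The median log2 fold change (log2FC) over all tested genes was 0.01. At an unadjusted p under 0.05, 4029 genes were lower (6.32%) and 1981 were higher (3.11%). The 330 lower genes had a median log2FC of -4.43, and none had fallen by less than 1.13 on the log2 scale. The smallest adjusted p was 0.0222, so the calls lay close to the threshold. Leaving out 1 library moved the calls both ways. Without WT replicate 3, 1115 genes were lower and 125 higher, and without WT replicate 1, 294 and 17. Without WT replicate 2, 4 genes were lower and 1 was higher. Without any one of the 3 E82 replicates no gene was called by edgeR, although 3322 to 3599 were lower at an unadjusted p under 0.05. Each such fit also has 1 library fewer, so loss of power and reliance on a given library cannot be told apart. DESeq2 called 1651 lower and 284 higher genes.

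**Figure D1:**
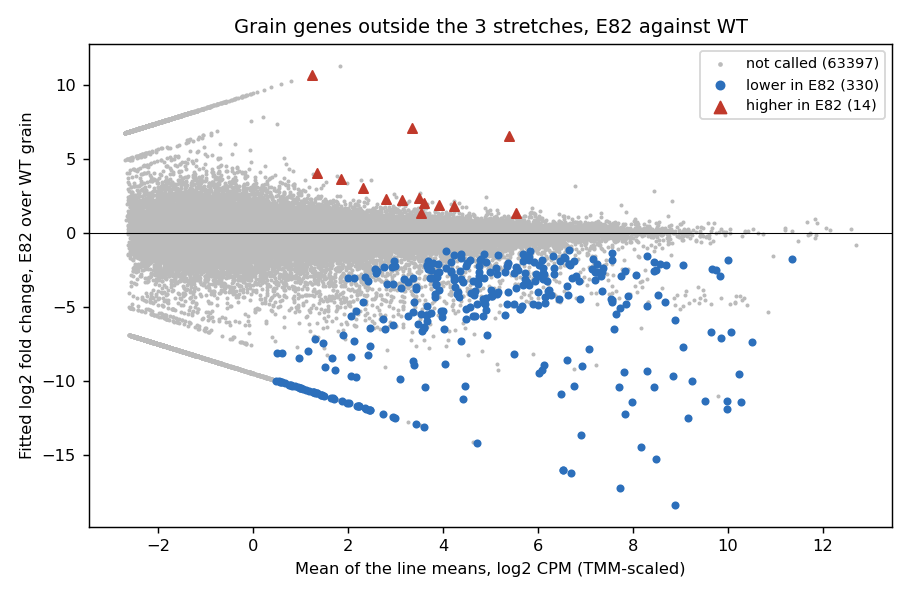
Fitted log2 fold change of E82 over WT grain (vertical axis) against the log2 of the average of the 2 line means in TMM-scaled CPM (horizontal axis), with 1 point per gene tested outside the 3 stretches. The 330 genes called lower (blue circles) reach far below 0 at middle and high levels, while the 14 called higher (red triangles) are few and mostly at low levels. The straight lower and upper edges are genes without counts in one line, where the fitted value depends on the prior count.

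The lower genes were highly expressed in WT grain, which a call of lower itself favors. Their median over genes of the line mean was 2.16 TPM (transcripts per 1000000 transcripts) in E82 and 34.9 TPM in the WT, where the median of all tested genes was 2.42 TPM in E82 and 2.16 TPM in the WT. In the WT, 106 of them exceeded 100 TPM and 22 exceeded 1000 TPM, whereas 12 exceeded 100 TPM in E82. Summed over the 330 genes, the E82 libraries held 14070, 11086 and 15569 TPM, and the WT libraries held 137472, 81316 and 48119 TPM. Each of these genes was lower in every E82 library on the TMM-scaled CPM scale, so the gap between the sums follows in large part from the call. As a share of the TPM listed for each library these are 1.75, 1.42 and 1.98% in E82 and 15.8, 9.88 and 5.85% in the WT. In bulk grain, fewer cells of a type and less RNA per cell cannot be told apart.

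In E82, 71 of the 330 genes had at most 3 counts in each grain library, taken here as the detection floor, which equals an average of 0.0722 CPM. Floors and bounds cover counting error only. Set against that floor, these 71 genes were at least 38.7-fold to at least 13066-fold lower. Of the remaining 259, 35 were less than 4-fold lower by the ratio of mean CPM, 149 were 4- to 30-fold lower and 75 were more than 30-fold lower.

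The WT libraries differed widely for many of these genes. By TMM-scaled CPM, WT replicate 1 was the highest WT library for 244 of the 330 genes, replicate 2 for 84 and replicate 3 for 2. Replicate 3 was the lowest for 306. Over all tested genes, replicate 1 was the highest for 23117 of 63741 and replicate 3 the lowest for 21534. The ratio of the highest to the lowest WT library had a median of 4.89 in the lower genes and of 1.8 in all tested genes. A gene with unlike WT libraries can pass the test only with a large fall, so among called genes the size of the fall goes with this ratio by selection. As a description, the median log2FC was -2.07 in the 51 genes with a ratio under 2, -3.03 in the 117 between 2 and 5, -4.89 in the 67 between 5 and 10, and -9.23 in the 95 above 10. The 95 genes held 284, 319.7 and 194 TPM in E82, against 85509, 13342 and 6498 TPM in the WT. The 51 genes held 11862, 8846 and 13316 TPM in E82, against 30664, 49414 and 34508 TPM in the WT. WT replicate 1 had the highest WT sum in the class above 10 and the lowest in the class under 2. By gene, on TMM-scaled CPM, it was the highest WT library for 92 of the 95 and for 27 of the 51. The TPM sums carry no TMM scaling, so the sums and the ranking by gene are on unlike scales. Without WT replicate 1, 294 genes were lower and 17 higher, and 220 and 8 of them were among the 330 and the 14. Those 220 included 34 of the 51 genes and 73 of the 95. The part of WT replicate 1 in the size of the falls beyond these values was not tested.

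**Figure D2:**
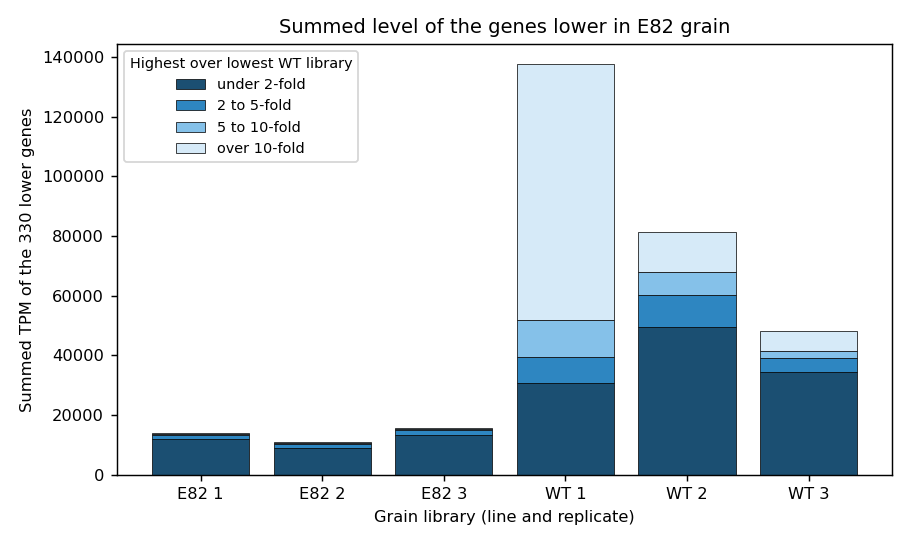
TPM summed over the 330 genes lower in E82 grain (vertical axis) in each of the 6 grain libraries (horizontal axis), divided by how far the highest and lowest WT libraries differ for each gene. The E82 bars stay between 11086 and 15569 TPM. The WT bars run from 48119 to 137472 TPM, and the difference among them lies mostly in the palest class, the 95 genes with a WT ratio above 10.

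**Figure D3:**
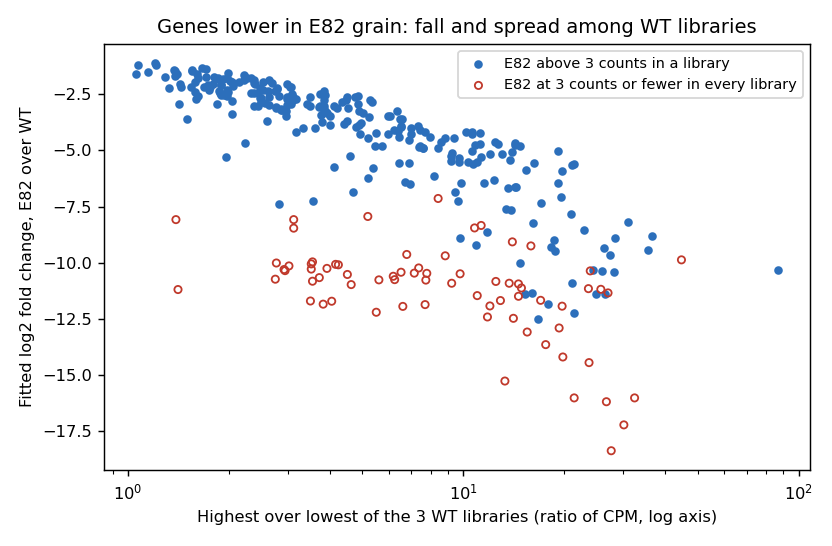
Fitted log2 fold change of the 330 genes lower in E82 grain (vertical axis) against the ratio of the highest to the lowest WT library (horizontal log axis), 1 point per gene. The slope is set in part by the test itself, which calls a gene with unlike WT libraries only when its fall is large. The 71 open circles are genes at the detection floor in E82, whose fitted fall is no bound.

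The 6 lower genes with the highest mean TPM all belonged to the class with similar WT libraries. Their line means were 995 to 2122 TPM in E82 and 2997 to 8015 TPM in the WT, and their log2FC lay between -2.92 and -1.35. The highest was TraesCSU02G032800, with 2120, 1461 and 2786 TPM in E82 and 5654, 10898 and 7491 TPM in the WT. On the CPM scale it averaged 194 ± 55.9 in E82 and 868 ± 181 in the WT (SD, n = 3 each), 4.47-fold lower in E82 (log2FC -2.16, standard error 0.27, adjusted p = 0.029, edgeR). The E82 libraries lay clearly below the WT libraries and the 3 WT values were of similar size. It was called in 10 of 13 alternative fits and also without WT replicate 1 (adjusted p = 0.00478).

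The other extreme was TraesCSU02G267761, the gene with the largest fall among those with a mean of at least 10 CPM. It had 0 counts in each E82 library, and 103754, 8401 and 4615 counts in WT replicates 1, 2 and 3. It was at least 13066-fold lower in E82 (adjusted p = 0.035, edgeR), and at least 1827-fold lower without WT replicate 1. None of the 6 leaf libraries held a count of it. Neither of these IDs is named in the sources used here.

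The 14 genes higher in E82 were modest in level. Their summed TPM was 311, 380.1 and 328 in E82 and 21, 39.6 and 26.8 in the WT. The ratio of mean CPM was 2.57 to 138 for 13 of them, with a median of 4.97. The remaining gene was at the floor in the WT, and was at least 72.3-fold higher in E82. TraesCS2B02G436500 held most of that sum, with 169.6, 209.6 and 169 TPM in E82 and 0.899, 4.4 and 0 TPM in the WT. It averaged 83 ± 12.3 CPM in E82 and 0.869 ± 1.03 CPM in the WT (SD, n = 3 each; log2FC 6.57, standard error 0.973, adjusted p = 0.035, edgeR). TraesCS3D02G266000 had 767, 892 and 848 counts in E82 and 7, 12 and 1 counts in the WT, and was 138-fold higher (log2FC 7.09, standard error 0.599, adjusted p = 0.0222, edgeR). Both were called in 12 of 13 alternative fits and without WT replicate 1. The sources used here name neither gene.

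Most of the lower genes were nearly absent from flag leaf. The 6 flag leaf libraries of the same lines, also taken 20 days after anthesis, had at most 3 counts each for 241 of the 330 genes (73%). This held for 14.7% of all tested genes, and for 7.9% of those with a mean of at least 10 CPM in a line in grain. In the class with a WT ratio above 10 it was 85 of 95 genes, and in the class under 2 it was 32 of 51. Of the 89 lower genes with leaf counts, 13 were lower and 11 higher in E82 leaf without overlap (14.6 and 12.4%), where all tested genes with leaf counts had 9.61 and 18.3%. These shares depend on level. Tested genes with leaf counts and a mean of at least 10 CPM in a line in grain had 17.4 and 10.5%. Among the 270 lower genes with a WT mean of at least 10 CPM, 78 had leaf counts, with shares of 12.8 and 10.3%. Leaf depth was unequal, with a count for 55916 to 59840 genes in the E82 libraries and for 31558 to 45655 genes in the WT libraries. Of the 14 higher genes, 5 had at most 3 counts in every leaf library.

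The lower genes were spread over all 21 chromosomes but not evenly. The share of tested genes called lower was 0.942% on 1D, 0.746% on 6B, 0.704% on 1A, 0.641% on 4D and 0.633% on 1B, and it was lowest, 0.262%, on 5B. Genes not placed on a chromosome (U in the ID) had the highest share, 25 of 795 or 3.14%. The order of the IDs, which follows the chromosome, was used in place of positions. Among 30 consecutive listed genes, up to 7 were lower on 1B, 1D and U, up to 6 on 6B and up to 4 on 1A, whereas no other chromosome had more than 3. On 1D these were the first 30 genes of the chromosome, where the 7 lower genes summed to 42.4, 51.7 and 32.8 TPM in E82 and 15379, 1700 and 1363 TPM in the WT. The window on 1B, genes 93 to 122 of 4280, held 10.5, 16.3 and 4.99 TPM in E82 and 12137, 1464 and 867 TPM in the WT. The window on 6B, genes 626 to 655 of 4615, held 0.979, 2.83 and 1.36 TPM in E82 and 4913, 957 and 344 TPM in the WT. In each window WT replicate 1 was several times above the other WT libraries. As background, gliadin and low-molecular-weight glutenin genes of wheat lie in clusters near the ends of the short arms of group 1 chromosomes, and α-gliadin genes lie on the short arms of group 6. Whether the genes in these windows are storage protein genes is not given in the sources used here. Where tandem copies are nearly identical, pseudoalignment may split their reads between them, and the level of any 1 copy is then uncertain.

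**Figure D4:**
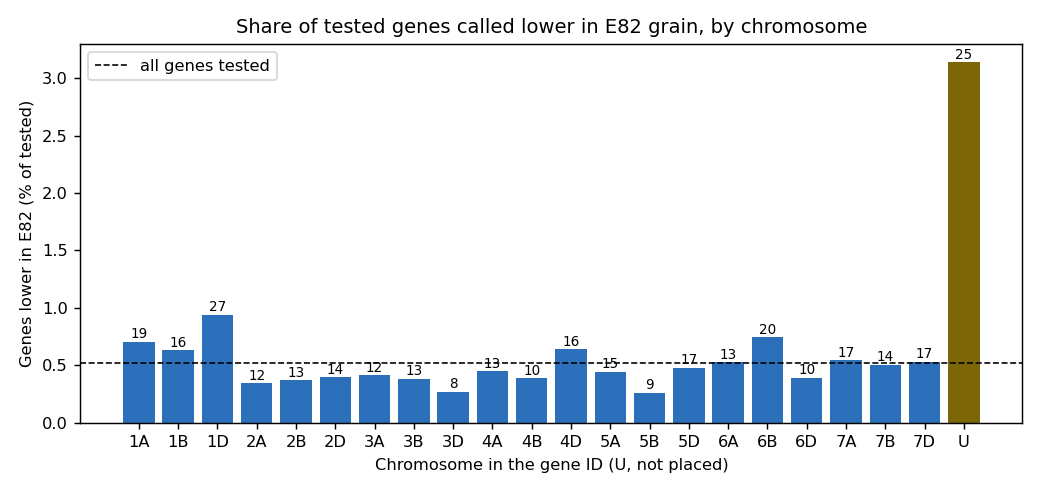
Genes called lower in E82 grain as a percentage of the genes tested on each chromosome (vertical axis), by the chromosome in the gene ID (horizontal axis), with the number of genes above each bar. The dashed line is the share over all tested genes, 0.518%. The highest bars are those of unplaced genes (U, 3.14%) and of chromosome 1D (0.942%).

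Most of the listed starch synthesis genes were lower in E82 grain, but few passed the test. Of the 19 starch synthesis-related genes listed by the study outside the stretches, all were tested, 3 were lower and none was higher, where 0.518% of all tested genes were lower. The median log2FC of the list was -2.78, against 0.01 over all tested genes, and 15 had every E82 library below every WT library, against 8.67% of all tested genes. The study drew this list up from these libraries, so it is no independent evidence of direction. WT replicate 1 was the highest WT library for 17 of the 19. Without WT replicate 2 or any one E82 replicate no gene of the list passed in edgeR, although 14 had a lower value at an unadjusted p under 0.05 in each of these fits. Without WT replicate 3, 11 genes passed. Without WT replicate 1, 3 passed, of which 2 were among the 3 named here.

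The 3 lower starch genes act at the entry of substrate and at branching. OsBT1-1, named after a rice transporter that carries ADP-glucose into the amyloplast, is listed with 2 homeologs. TraesCS6B02G210000 had 0 CPM in all E82 libraries and 34.9, 10.4 and 2.48 CPM in the WT, and was at least 221-fold lower (adjusted p = 0.035, edgeR), or at least 89.3-fold lower without WT replicate 1. TraesCS6D02G168200 also had 0 CPM in all E82 libraries, with 20.5, 5.59 and 1.21 CPM in the WT, and was at least 126-fold lower (adjusted p = 0.0413, edgeR). Without WT replicate 1 that bound was 47.1-fold and the adjusted p was 0.0836. Both copies were thus at the floor in every E82 grain library, while the WT libraries differed by more than 10-fold. GBE1/BEIIb (TraesCS2A02G310300), a starch branching enzyme of amylopectin synthesis, had 2.19, 0.818 and 0.448 CPM in E82 and 133, 27.5 and 8.21 CPM in the WT. It averaged 1.15 ± 0.915 CPM in E82 and 56.3 ± 67.3 CPM in the WT (SD, n = 3 each; log2FC -5.58, standard error 1.01, adjusted p = 0.0492, edgeR). The lines did not overlap, and the fall was 48.9-fold with all libraries and 15.5-fold without WT replicate 1.

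The 16 starch genes that did not pass had log2FC values from -4.82 to 0.34 and adjusted p-values from 0.0809 to 0.994 (edgeR). The GBSSI genes, which make amylose, had log2FC values from -4.01 to -3.27 over 3 genes and every E82 library below every WT library. For the copy on 7D (TraesCS7D02G064300), chosen after its values were seen, the E82 libraries had 17.7, 16.5 and 18.3 CPM and the WT libraries 685, 119 and 41 CPM (log2FC -4.01, 16.1-fold, adjusted p = 0.0809, edgeR). This copy passed without WT replicate 1, with a log2FC of -2.22, a 4.56-fold lower level in E82 and an adjusted p of 0.0354 (edgeR). The copies on 4A (TraesCS4A02G418200) and 7A (TraesCS7A02G070100) were then 3.34- and 2.77-fold lower and did not pass (adjusted p = 0.0713 and 0.113, edgeR). GBE1 on 7A (TraesCS7A02G549100) and 7B (TraesCS7B02G472500) went from 8.65- and 6.88-fold lower to 1.85- and 1.62-fold lower without WT replicate 1. SSIIa, a synthase of amylopectin chains, had log2FC values of -4.82 and -3.59 for its 2 listed copies, and of -2.87 and -1.90 without WT replicate 1. The 3 listed subunit genes of ADP-glucose pyrophosphorylase, which supplies ADP-glucose, had log2FC values from -2.49 to -2.19, with adjusted p-values of 0.177 to 0.247 (edgeR). They were, without WT replicate 1, 1.71- to 2.17-fold lower by the ratio of mean CPM, and did not pass. The highest value was that of SPS (TraesCS4B02G091100), a sucrose phosphate synthase gene, with 22.1, 31.9 and 46.6 CPM in E82 and 22.2, 25.8 and 31.3 CPM in the WT (log2FC 0.34, adjusted p = 0.828, edgeR). Its lines overlapped. The homeologs of SSIIIa, a starch synthase with another copy in the 1B stretch, had 1.22, 0 and 1.97 CPM in E82 and 56, 9.21 and 5.51 CPM in the WT on 1A (TraesCS1A02G091500; log2FC -4.49, adjusted p = 0.181, edgeR). On 1D (TraesCS1D02G100100) they had 5.16, 5.55 and 5.5 CPM in E82 and 39.9, 10.2 and 7.57 CPM in the WT (log2FC -1.83, adjusted p = 0.263, edgeR). Neither passed, although no E82 library reached a WT library for either copy. The ratio of mean CPM was 22.2-fold on 1A and 3.56-fold on 1D, and without WT replicate 1 it was 6.92-fold and 1.64-fold.

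Among the transcription factors that the study selected from these libraries as candidate regulators, 10 of 24 tested were lower and none was higher. The list has 26 members outside the stretches, of which NF-YC4 (TraesCS4D02G223400) and a GLK1 copy (TraesCS7D02G347500) were too low in grain to be tested. All 24 had every E82 library below every WT library, and the median log2FC was -4.69. Since these genes were chosen for their difference in these samples, the counts describe them and are no evidence of direction. WT replicate 1 was the highest WT library for 23 of the 24. In edgeR none passed without WT replicate 2 or any one E82 replicate, with all 24 lower at an unadjusted p under 0.05, and 23 passed without WT replicate 3. Without WT replicate 1, 7 passed, of which 5 were among the 10.

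Both called copies of AT2G38090, listed under the ID of its Arabidopsis relative, had the smallest standard errors of the 10. On 1A (TraesCS1A02G275800) the libraries had 8, 8.03 and 11.6 CPM in E82 and 177, 99.8 and 29.8 CPM in the WT (log2FC -3.47, standard error 0.545, adjusted p = 0.035, edgeR). On 1D (TraesCS1D02G275400) they had 2.14, 2.58 and 5.26 CPM in E82 and 110.3, 56.1 and 20.1 CPM in the WT (log2FC -4.23, standard error 0.607, adjusted p = 0.035, edgeR). Both were also called without WT replicate 1, with log2FC values of -2.85 and -3.56. The 1B copy (TraesCS1B02G285000), which had the smallest fall of the list, had 4.72, 8.12 and 8.31 CPM in E82 and 101, 82.4 and 12.8 CPM in the WT (log2FC -3.21, adjusted p = 0.0599, edgeR). It did not pass the threshold, and a difference among the copies was not tested.

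NF-Y factors bind CCAAT boxes as a complex of A, B and C subunits. NFYB9 (TraesCS7A02G214700), a B subunit whose Arabidopsis namesake acts in embryo development, had 0 CPM in all E82 libraries and 23, 12.5 and 4.18 CPM in the WT. It was at least 183-fold lower (adjusted p = 0.0273, edgeR), or at least 116-fold lower without WT replicate 1, and 12 of 13 alternative fits called it. NF-YC2 on 7B (TraesCS7B02G248300), a C subunit, had 3.42, 2.45 and 2.72 CPM in E82 and 180.2, 41.2 and 12.6 CPM in the WT (log2FC -4.76, standard error 0.83, adjusted p = 0.0451, edgeR). The 3 E82 libraries were close to each other, whereas the WT libraries spanned 14.3-fold. It was 27.2-fold lower in E82, and 9.39-fold lower without WT replicate 1, where it was also called (adjusted p = 0.0155). Its homeologs on 7A (TraesCS7A02G336700) and 7D (TraesCS7D02G344400) had log2FC values of -4.32 and -4.25 and missed the threshold (adjusted p = 0.054 and 0.0516, edgeR). Both passed without WT replicate 1, with log2FC values of -2.87 and -2.89 (adjusted p = 0.0332 and 0.0438, edgeR).

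TaPBF is a DOF factor that binds the prolamin box of storage protein genes. The A homeolog (TraesCS5A02G155900) had 0, 0.603 and 0.329 CPM in E82 and 47.7, 12.3 and 5.81 CPM in the WT, 70.6-fold lower in E82 (log2FC -6.14, standard error 1.08, adjusted p = 0.0455, edgeR). Without WT replicate 1 it was 29.2-fold lower and did not pass (adjusted p = 0.118). The B (TraesCS5B02G154100) and D (TraesCS5D02G161000) copies had log2FC values of -5.09 and -5.36 and did not pass (adjusted p = 0.244 and 0.256, edgeR), and of -3.59 and -3.00 without WT replicate 1. For both, E82 replicates 1 and 2 had 0 CPM and E82 replicate 3 had 2.12 CPM on 5B and 1.88 CPM on 5D, still below every WT library.

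The NAC family was represented by ANAC087 on 5A (TraesCS5A02G245900), with 1.92, 2.15 and 2.36 CPM in E82 and 133, 22.6 and 11.8 CPM in the WT (log2FC -4.70, standard error 0.819, adjusted p = 0.0451, edgeR). It was 26-fold lower, and without WT replicate 1 it was 8.03-fold lower and also called (adjusted p = 0.00844). The largest fitted fall of the list was that of another NAC gene, TaNAC019-B (TraesCS3B02G092800), at 0 CPM in all E82 libraries and 40.9, 1.46 and 3.29 CPM in the WT. It did not pass (adjusted p = 0.0633, edgeR), and its WT libraries differed 28-fold. It was at least 211-fold lower in E82, or at least 32.9-fold lower without WT replicate 1. The 3 NAC038 genes had log2FC values from -4.16 to -3.82 and adjusted p-values from 0.0657 to 0.131 (edgeR), and were 4.28- to 6.72-fold lower without WT replicate 1, where they did not pass either.

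The remaining called factors were at 1.14 CPM or less in E82. LBD41 (TraesCS4D02G354100), of the lateral organ boundaries domain family, had 0.124, 0 and 0.0299 CPM in E82 and 24.8, 6.22 and 1.86 CPM in the WT (adjusted p = 0.035, edgeR). TaGL9-B (TraesCS3B02G354900) had 0.165, 1.14 and 1.14 CPM in E82 and 69.7, 13.5 and 7.57 CPM in the WT (adjusted p = 0.0493, edgeR). RGA1 (TraesCS1B02G443800) and a DREB factor (TraesCS7B02G140300), of a family that binds dehydration-responsive elements, had 0 CPM in all E82 libraries. In the WT, RGA1 had 5.25, 3.58 and 1.8 CPM, and the DREB gene 4.33, 3.72 and 1.43 CPM. They were at least 49-fold and at least 43.8-fold lower (adjusted p = 0.035 and 0.0399, edgeR). None of these 4 was called without WT replicate 1, where the adjusted p-values were 0.138, 0.0716, 0.13 and 0.152. LBD41 was 214-fold lower with all libraries and 78.9-fold lower without that replicate, and TaGL9-B 37.1-fold and 12.9-fold.

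**Figure D5:**
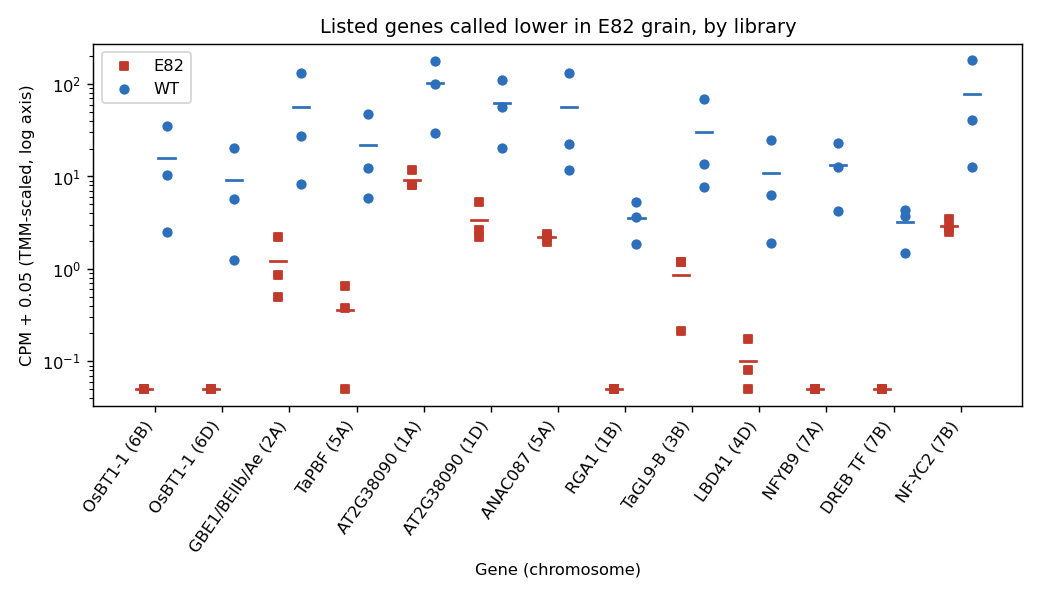
CPM + 0.05, scaled by TMM (vertical log axis), of the 13 listed genes called lower in E82 grain, with 1 square per E82 library, 1 circle per WT library and a short line at the mean of 3 libraries. In every gene the E82 squares lie below the WT circles. Squares at 0.05 stand for 0 CPM.

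Known regulators of storage protein and starch genes were taken by the study from earlier literature. All 49 were tested, 1 was lower (TaPBF-A) and none was higher, and the median log2FC was -0.13. The lines did not overlap for 10 of them, 7 lower and 3 higher in E82, where the shares over all tested genes were 8.67 and 6.96%. TaPBF-A was not called without WT replicate 1, WT replicate 2 or any one E82 replicate, and 3 regulators were called without WT replicate 3. The 20 bZIP genes of this list had a median log2FC of 0.11. The lowest of them was TabZIP167.2 (TraesCS5D02G178800), with 1.26, 1.03 and 0.747 CPM in E82 and 18.1, 7.26 and 2 CPM in the WT (log2FC -3.16, adjusted p = 0.0998, edgeR). It was 9.02-fold lower without overlap, and 4.57-fold lower without WT replicate 1. GAMYB on 3A (TraesCS3A02G336500) was 6.36-fold lower without overlap (adjusted p = 0.108, edgeR), and 3.41-fold lower without that replicate. Each was called in 4 of 13 alternative fits. The highest value of the list was that of TabZIP238.1 (TraesCS7A02G207100), with 1.4, 3.36 and 2.06 CPM in E82 and 0.94, 0.773 and 0.706 CPM in the WT (log2FC 1.49, adjusted p = 0.607, edgeR).

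No gene of the globulin, protease, inhibitor and transporter lists passed the test in the main fit. The study listed these proteases, inhibitors and transporters as genes differing in E82 leaf, so they do not stand for their families in grain. It also reported some of the sugar and proline transporter genes as changed in E82 grain. The transporter lists may thus not be independent of the grain libraries used here. At an unadjusted p under 0.05, 1 of the 2 Glo3 genes, 2 of 5 cystatins, 2 of 9 cysteine proteases, 4 of 29 serine proteases, 4 of 15 sugar transport genes and 6 of 34 amino acid transport genes were lower. At the same level 0, 0, 1, 2, 1 and 2 were higher. Over all tested genes 6.32% were lower and 3.11% were higher at this level. Some members were called in other fits. Icy8 on 2D and the serine protease gene TraesCS4B02G352100 were each called in 4 of 13 alternative fits. TaAUX2-1B (TraesCS1B02G287300) was called in 3, TaProT2-3B in 2, and SUT1A and the Glo3 gene TraesCS4A02G296100 in 1 each. No cysteine protease gene was called in any of the 13.

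Glo3 encodes globulins of the grain. TraesCS4A02G296100 had 4491, 4962 and 5248 CPM in E82 and 9536, 7149 and 8348 CPM in the WT, 1.7-fold lower without overlap (log2FC -0.77, adjusted p = 0.144, edgeR). TraesCS4A02G296000 had 2475, 2173 and 2409 CPM in E82 and 2194, 4810 and 2956 CPM in the WT (log2FC -0.50, adjusted p = 0.624, edgeR). The lines did not overlap for the first gene and overlapped for the second.

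Cystatins are inhibitors of cysteine proteases. Icy8 on 2D (TraesCS2D02G128900) had 75.8, 73.5 and 66.5 CPM in E82 and 181, 155 and 111 CPM in the WT (log2FC -1.05, adjusted p = 0.0842, edgeR). Icy1-2 on 1B (TraesCS1B02G322100) had 97.1, 87.1 and 69.4 CPM in E82 and 44.5, 60.1 and 101 CPM in the WT (log2FC 0.30, adjusted p = 0.881, edgeR). The first did not overlap between the lines and the second did. Cysteine proteases reached from the HvPap4 ortholog on 5B (TraesCS5B02G138300), with 1.38, 1.01 and 1.02 CPM in E82 and 2.62, 1.04 and 3.19 CPM in the WT, to a log2FC of 1.15 for Psy1-D1 (TraesCS3D02G232500). Serine proteases reached from a log2FC of -1.74 for TraesCS4B02G352100 to 1.47 for TraesCS7B02G128300. Psy1-D1 had 14.4, 30.5 and 17 CPM in E82 and 6.51, 10.1 and 11.2 CPM in the WT, without overlap (adjusted p = 0.246, edgeR).

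Sugar transport genes had a median log2FC of -0.23. The SUT1 genes encode sucrose transporters and were well expressed. SUT1A (TraesCS4A02G016400), chosen after its values were seen, had 217, 222 and 282 CPM in E82 and 535, 432 and 293 CPM in the WT (log2FC -0.81, adjusted p = 0.292, edgeR). SWEET genes encode sugar exporters, and 10 of the 14 listed reached the level for testing in grain. The lowest log2FC of the sugar transport list, -7.15, belonged to TaSWEET13h-6B (TraesCS6B02G421500), with 0 CPM in E82 and 0.297, 0 and 0.888 CPM in the WT (adjusted p = 0.603, edgeR). The highest was that of the cell wall invertase gene TaCWIN on 2B (TraesCS2B02G311900), with 132, 316 and 223 CPM in E82 and 170.4, 90.6 and 123 CPM in the WT (log2FC 0.80, adjusted p = 0.49, edgeR).

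Amino acid transport genes had a median log2FC of -0.06. Of the 34 tested, 18 had a log2FC below 0. The lowest was the permease gene TaAAP9-3A (TraesCS3A02G388100), with 0, 0 and 0.598 CPM in E82 and 4.18, 1.65 and 1.23 CPM in the WT (log2FC -3.58, adjusted p = 0.569, edgeR). The copies on 3B (TraesCS3B02G420600) and 3D (TraesCS3D02G381400) had log2FC values of -2.97 and -2.24. Neither overlapped between the lines and neither passed (adjusted p = 0.31 and 0.265, edgeR). The highest was the proline transporter gene TaProT2-3B (TraesCS3B02G449100), with 1.94, 0.646 and 0.777 CPM in E82 and 0 CPM in all WT libraries (adjusted p = 0.266, edgeR). Its homeologs on 3A (TraesCS3A02G414300) and 3D (TraesCS3D02G408800) had log2FC values of 0.86 and 2.52 and did not pass. TaAAP9-3A and the TaProT2 genes reached at most 4.18 CPM in any grain library.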

How the data were processed

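The authors used Trimmomatic 0.36 for trimming and kallisto 0.44.0 for pseudoalignment to the IWGSC RefSeq v1.1 transcripts. They deposited estimated counts per gene, not normalized, and for each library the TPM of each transcript. Counts were rounded, and TPM values were summed per gene. Genes in the 3 stretches were left out before testing. Genes whose CPM summed to more than 1 in the 6 grain libraries were fitted with edgeR 4.0.16 in R 4.3.3 (TMM, quasi-likelihood test, Benjamini-Hochberg adjustment, threshold 0.05). Standard errors were obtained from the log2FC and the F statistic. CPM values are TMM-scaled in grain and scaled to library totals in leaf. The alternatives used DESeq2 1.42.0, limma 3.58.1, other tests, scalings and filters, a replicate block, and 1 library fewer. On the log2(TPM + pseudocount) scale, changes of low genes are understated.

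The members and lists were chosen with earlier results of these data known. Named were, per list of the study, the called genes and both extremes, and, for IDs without a name, 1 by size of change and 1 by level in each direction. The reference table matched 0 gene IDs, so that lists by product and cell type markers could not be applied, and no sequences are shown. Leaf libraries were described, not tested.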

Additional observations from a re-analysis of the deposited data

Results flagged for a closer look

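GBE1/BEIIb (TraesCS2A02G310300) was lower in E82 grain (log2FC -5.58) while its leaf libraries lay the other way, with 0.2, 0.54 and 0.913 CPM in E82 leaf and 0 CPM in all WT leaf libraries. The difference between the tissues was not tested. Its E82 leaf counts were 12, 30 and 51, and the WT leaf libraries had a count for fewer genes than those of E82. The pattern is not particular to this gene. GBE1 on 7B (TraesCS7B02G472500), not called in grain (log2FC -2.78), had 2.77, 2.22 and 2.31 CPM in E82 leaf and 0 CPM in all WT leaf libraries. Of the 89 lower genes with leaf counts, 11 were higher in E82 leaf without overlap (12.4%) and 13 lower. Over all tested genes with leaf counts 18.3% were higher, and 10.5% of those with a mean of at least 10 CPM in grain.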

How the results depend on the processing

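With 14 higher and 330 lower genes as reported, RLE normalization gave 13 and 330 and the TMM-free library totals 32 and 493, with a median log2FC over all genes of 0.19 instead of 0.01. DESeq2 called 284 higher and 1651 lower genes, the edgeR exact test 166 and 1377, and the likelihood ratio test 238 and 1651. Other filters gave 12 and 164 (filterByExpr), 74 and 1060 (every gene with 1 count) and 29 and 531 (CPM sum over 12 libraries). With the stretches kept in the fit, 33 and 548 genes outside them were called, and with all 12 libraries sharing one spread 3 and 4, where 1133 and 2336 had an unadjusted p under 0.05. limma called 14 and 66 on log2(TPM + 1), and 24 and 222 on log2(TPM + 0.1). With 1 library left out, 0 to 125 genes were higher and 0 to 1115 lower, the upper ends without WT replicate 3. The exact test, the likelihood ratio test, the 2 wider filters and the fit with the stretches kept all the called genes, DESeq2 kept 14 and 304, and filterByExpr 12 and 164. Deviations of same-numbered libraries correlated at -0.0444 to 0.0218, and those of other pairs at -0.0516 to 0.0577. With 3 libraries per line these values cannot decide whether the numbers pair the plants. A replicate block gave 16 higher and 394 lower genes, 11 and 243 of them among those reported.

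The 3 lower starch genes became 8 with DESeq2, 14 with the exact test and 0 without WT replicate 2 or any E82 replicate. The 10 lower candidate factors became 22, 24 and 0. No named gene changed direction in any fit. In 208 fits of named genes with 1 library fewer a call was lost in 73 and gained in 3, and in 453 other fits it was lost in 52 and gained in 30. Depth limits genes below a few CPM, where counts of 0 are common.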

Other observations

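Genes next to the stretches that had been left out were looked at separately. Within 100 listed genes of an edge, 2 of 131 tested genes were lower in E82 grain on 1B, 3 of 48 on 3A and 1 of 52 on 3D, and none was higher, where 0.518% of all tested genes were lower. None of these 6 was lower in E82 leaf without overlap. The median log2FC of the tested genes there was -0.04 on 1B, -0.44 on 3A and -0.09 on 3D, against 0.01 over all tested genes.

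The 3 genomes took similar parts in the change. Of the tested genes, 101 were lower on the A genome (0.482%), 95 on B (0.455%) and 109 on D (0.516%), with 4, 6 and 4 higher genes. By chromosome group the share of lower genes was 0.766% in group 1 and 0.559% in group 6, and between 0.358 and 0.528% in the other 5 groups.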
